A study of Mus musculus with 20 samples.

Results

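Keratin genes were followed in breast tumors and tumor cells of PyMT mice with and without cathepsin D (CTSD), a lysosomal aspartic protease encoded by Ctsd. The members were the luminal keratins Krt7, Krt8, Krt18 and Krt19, the basal keratins Krt5, Krt14, Krt15 and Krt17, and Krt20 and Krt80, which belong to neither class. They were chosen by symbol, 10 genes out of 45706 counted gene identifiers, in an annotation with 53 protein-coding keratin genes. RNA sequencing covered 20 samples. Control tumors came from 4 PyMT mice, 18 weeks old, with functional CTSD. Ctsd-/- tumors came from 4 MMTV-cre;Ctsd-/- PyMT mice of the same age. In all mice the polyoma middle T oncogene (PyMT) is driven by the MMTV promoter. In the MMTV-cre;Ctsd-/- mice the same promoter drives the Cre recombinase that deletes Ctsd. The deletion is thus aimed at the mammary epithelium while other cells of the tumor keep the gene. The paper names its controls by their Ctsd alleles, without MMTV-cre, so presence of Cre and loss of CTSD cannot be told apart. The cells were spontaneously immortalized tumor cells from 1 Ctsd+/+ and 1 MMTV-cre;Ctsd-/- PyMT mouse, kept in a mild starvation medium with 1% fetal calf serum. The groups named 1% FCS had 10 days of it and those named 1% FCS LT had 12 weeks, with 3 cultures in each of the 4 groups. Each genotype of cells is therefore 1 mouse, and p-values in cells measure the spread between cultures, not between mice.

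Keratins are the intermediate filament proteins of epithelial cells. A filament is built from pairs of a type I and a type II keratin, and desmosomal linker proteins tie the filaments to cell contacts. In the mammary gland the luminal cells that line the ducts are known for Krt8, Krt18 and Krt19, whereas the outer basal and myoepithelial cells carry Krt5, Krt14 and Krt17. Of the members, Krt5, Krt7, Krt8 and Krt80 are type II and the others type I.

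Gene counts ranged from 49725437 to 64291587 per tumor and from 33622831 to 40239762 per cell sample, and levels are given as CPM, counts scaled to the effective library size within each material. Ctsd had 1781 to 2617 CPM in control tumors and 360 to 1295 CPM in Ctsd-/- tumors, and in cells 1267 to 4199 CPM in all Ctsd+/+ samples against 114 to 192 CPM in all Ctsd-/- samples, so the groups did not overlap in either material. The control tumors and the Ctsd-/- tumors carry different codes in the labels, whose meaning is not stated, so code and genotype cannot be told apart in tumors. In cells 8 samples from all 4 groups share a code. Among the tumors, Ctsd-/- tumors 3 and 4 stood apart with 19084 and 36830 summed CPM of 10 adipocyte markers, against 678 to 10713 CPM in the other 6. Among the cell samples, the 3 Ctsd+/+ 1% FCS cultures stood apart. They had 625 to 1016 summed CPM of 12 epithelial junction and regulator markers, against 3618 to 5499 CPM in the other 9 cultures, and 2750 to 3481 CPM of Vim, the intermediate filament protein vimentin, against 0.906 to 810 CPM. Epcam and Cdh1, defining epithelial genes, were measured in every cell sample, at 128.5 CPM or more and 234 CPM or more. Elf5 and Acta2, which define the alveolar luminal and the myoepithelial lineage, were under 1 CPM in all cell samples except for Acta2 in the Ctsd+/+ 1% FCS cultures (5.01 to 53.9 CPM). Other markers of these lineages were measured. The 11 basal and myoepithelial markers without keratins summed to 700 to 932 CPM in Ctsd+/+ 1% FCS and 1049.5 to 1336 CPM in Ctsd-/- 1% FCS cells. In LT their sum was 2187 to 2719 CPM with and 1058 to 1273 CPM without CTSD. The 12 luminal markers without keratins summed to 289 to 758 CPM across the cell samples.

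The members lie on chromosomes 11 and 15, and Krt8 and Krt18 are neighbors on chromosome 15 (GRCm38) that are transcribed away from each other. Krt8 occupies positions 101996698 to 102004482 and Krt18 positions 102028180 to 102032027. Krt7 lies at 101411043 to 101430313 and Krt80 at 101347444 to 101370162 on the same chromosome, and Krt20 lies at 99428403 to 99438150 on chromosome 11. RefSeq promoter windows of build GRCm38.p6, from 250 bases before to 50 bases after a gene start, were given for 6 of the 10 members. The upstream bases of Krt7, Krt8 and Krt18 are shown because these genes changed together in cells, and those of Krt20 because its change was the largest of the members. Both strands of all 32851 windows were searched for the TATA box, spelled as TATAAA, the AP-1 site, spelled as TGANTCA, the GC box, spelled as GGGCGG, and the E-box that repressors of the ZEB and SNAI families are known to bind, spelled as CACCTG. In this order 13.6%, 7.81%, 35.7% and 20.2% of the windows held at least 1. Capitals mark matches on either strand, none of which overlaps another. Each sequence runs 5′ to 3′ on the strand of its gene, and that of Krt7 lies before a RefSeq start but inside the annotated gene.
Krt7, chr15:101412153-101412401, plus strand: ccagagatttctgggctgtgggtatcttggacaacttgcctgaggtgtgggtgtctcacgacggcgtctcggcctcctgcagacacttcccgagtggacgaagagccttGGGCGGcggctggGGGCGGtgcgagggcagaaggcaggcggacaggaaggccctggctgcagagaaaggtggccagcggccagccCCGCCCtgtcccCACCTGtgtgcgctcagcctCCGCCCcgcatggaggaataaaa
Krt8, chr15:102004483-102004592, minus strand: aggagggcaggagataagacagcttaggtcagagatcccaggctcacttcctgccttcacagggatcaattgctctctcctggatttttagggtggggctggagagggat
Krt18, chr15:102027966-102028179, plus strand: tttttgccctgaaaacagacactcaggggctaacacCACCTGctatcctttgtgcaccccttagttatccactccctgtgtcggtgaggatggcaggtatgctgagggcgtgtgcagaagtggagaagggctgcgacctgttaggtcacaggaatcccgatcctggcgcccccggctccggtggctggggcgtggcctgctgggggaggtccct
Krt20, chr11:99438154-99438403, minus strand: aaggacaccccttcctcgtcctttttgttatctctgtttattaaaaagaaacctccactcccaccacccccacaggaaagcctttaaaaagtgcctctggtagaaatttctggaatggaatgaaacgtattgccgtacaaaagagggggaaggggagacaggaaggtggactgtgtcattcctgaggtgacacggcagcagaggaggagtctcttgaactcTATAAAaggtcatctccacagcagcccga
The Krt7 stretch held 4 GC boxes and 1 E-box, that of Krt18 held 1 E-box, and that of Krt20 held a TATA box. The Krt8 stretch held none of the 4 motifs, although its full window contained a TATA box and, like those of Krt5, Krt7 and Krt18, an E-box. These matches describe the letters of the windows, and binding was not measured.

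Krt18 was the most abundant member per length of transcript in every sample except Ctsd+/+ 1% FCS replicate 3, where Krt8 was higher (391 against 323 CPM per kilobase), and the order of the others differed between tumors and cells. Per kilobase of the coding transcript, control tumors had 1531 CPM of Krt18, 975 CPM of Krt19 and 719 CPM of Krt8 (means, n = 4), whose ranges overlapped from one to the next. The next gene in the order, Krt14, had 70.1 CPM per kilobase and lay below Krt8 in every control tumor, followed with overlapping ranges by Krt7 (60.0), Krt17 (35.4) and Krt5 (21.3 CPM per kilobase). Krt15 (4.70) and Krt80 (0.689) were lower, and Krt20 had 0.234 CPM per kilobase. In Ctsd-/- tumors the order began with Krt18 (1184), Krt8 (679) and Krt19 (622 CPM per kilobase), and from Krt8 down to Krt15 each gene overlapped its neighbor in range.

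Cells differed from this order mainly in Krt7, Krt19 and the basal keratins. In Ctsd-/- 1% FCS cells the levels per kilobase were 2486 CPM for Krt18, 1657 for Krt8, 790 for Krt7, 283 for Krt19, 39.4 for Krt80, 10.4 for Krt20 and 4.00 CPM for Krt14 (means, n = 3). The only neighbors among these 7 that overlapped in range were Krt18 and Krt8. Krt7 thus stood above Krt19 in all 9 cultures outside the Ctsd+/+ 1% FCS group, while Krt19 stood far above Krt7 in all 8 tumors. Krt5, Krt15 and Krt17 were at or below 0.726, 0.164 and 0.519 CPM in every cell sample, so that of the basal keratins only Krt14 was present in the cells above 1 CPM. Tumors and cells were counted and scaled separately, and no test was made between them.

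**Figure D1:**
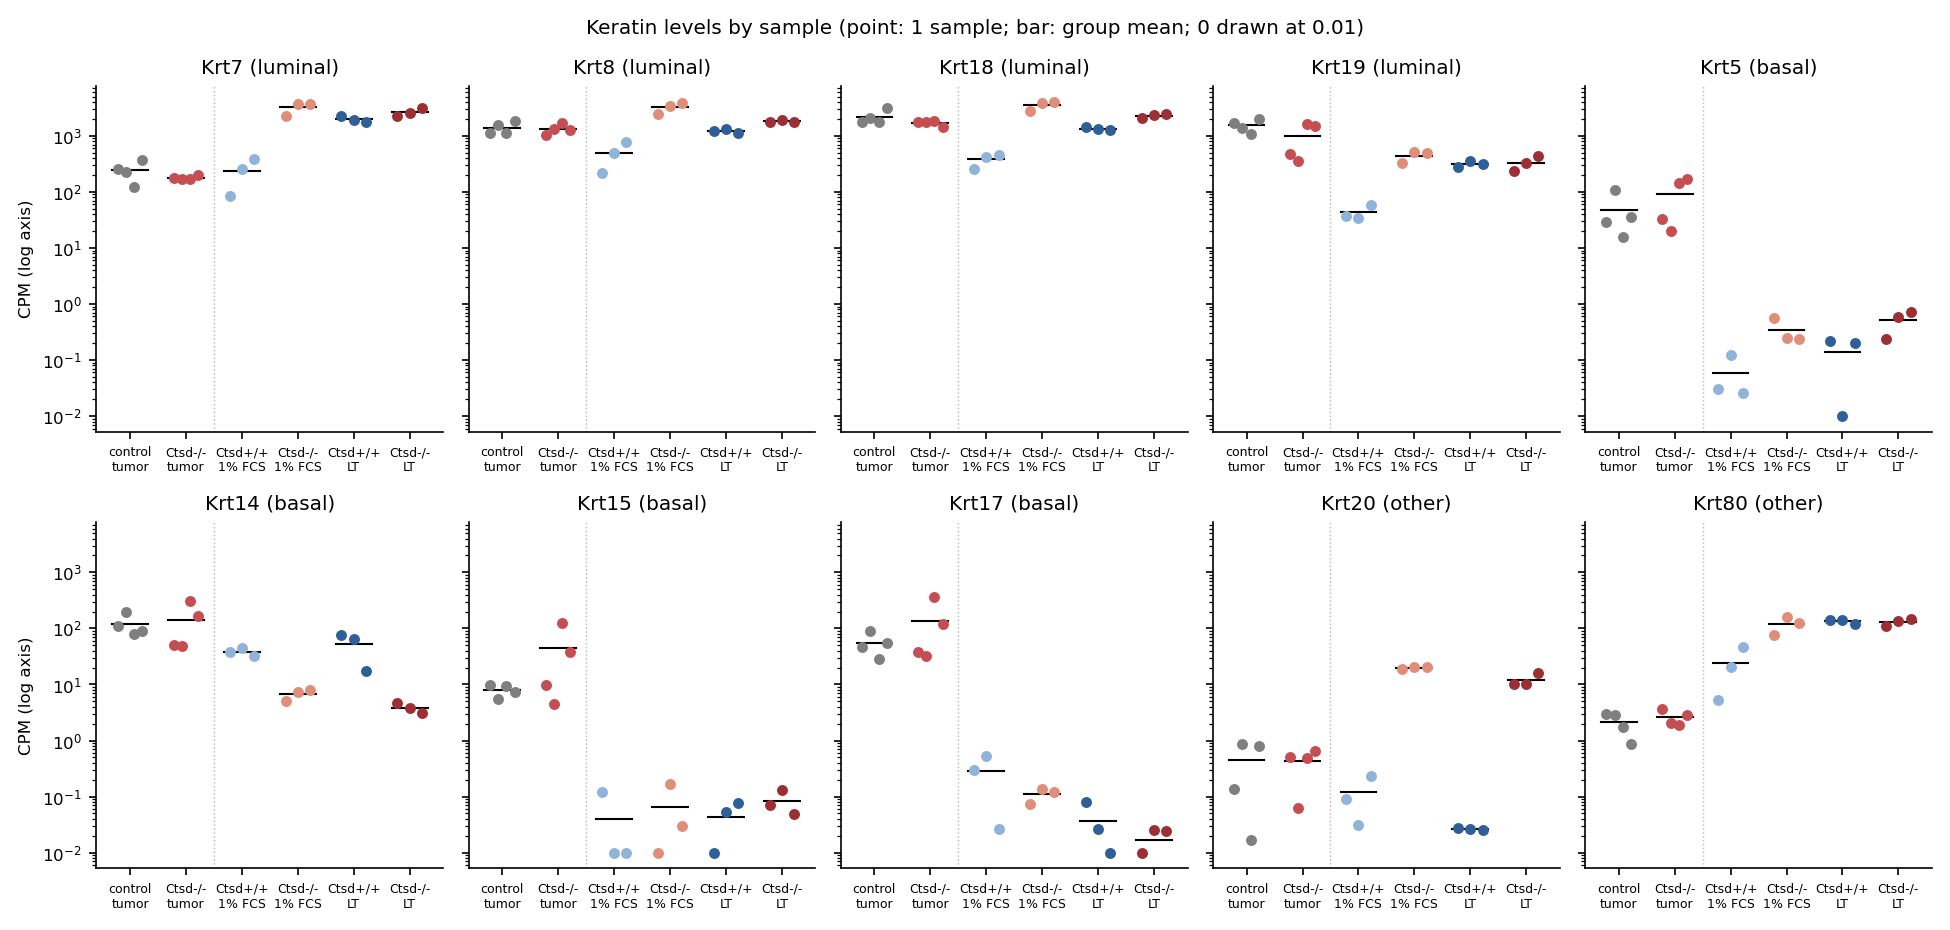
Level of each of the 10 keratins in every sample (CPM on a log axis), by group, with the group mean as a bar and values of 0 drawn at 0.01. Among the cell groups the luminal keratins have their lowest means in the Ctsd+/+ 1% FCS cells, Krt14 is lower in Ctsd-/- than in Ctsd+/+ cells, and Krt20 is measured above 1 CPM only in Ctsd-/- cells.

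The tumor comparison asks whether loss of CTSD in the mammary epithelium goes with a different keratin make-up. At the study's threshold for tumors, an unadjusted p of 0.1, the basal keratins Krt15 and Krt17 were called higher in Ctsd-/- tumors and no member was called lower. These are 2 of 10 members tested higher, where 8.44% of all 18617 genes tested were called higher, and 0 of 10 lower, where 8.27% were called lower. With edgeR 0 members had an unadjusted p under 0.05 on the lower side and 1 on the higher side. The share of all genes at that p was not counted. Limma-voom called 0 higher and 1 lower, where 8.33% and 6.98% of all genes tested were called. No member had an adjusted p under 0.05, which 0.00537% of all genes had.

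Krt15, a type I keratin known from basal cells of stratified epithelia, had 9.71, 5.53, 9.25 and 7.48 CPM in control tumors 1 to 4. It had 9.95, 4.55, 125 and 38.65 CPM in Ctsd-/- tumors 1 to 4. Ctsd-/- tumors 3 and 4 were thus above all controls, whereas tumors 1 and 2 lay near them and the groups overlapped. The log2 fold change (FC) was 2.48 (standard error (SE) 0.84, unadjusted p = 0.0142, edgeR adjusted p = 0.514).

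Krt17, a keratin of basal and myoepithelial cells, had 46.7, 90.1, 28.9 and 53.9 CPM in control tumors and 37.4, 31.96, 362 and 117.5 CPM in Ctsd-/- tumors. Again the high values were those of Ctsd-/- tumors 3 and 4, and the groups overlapped. The log2 FC was 1.32 (SE 0.71, unadjusted p = 0.0909, edgeR adjusted p = 0.592), and without Ctsd-/- tumor 3 it was 0.18. The call was lost without control tumor 1, 3 or 4 or Ctsd-/- tumor 3 or 4. Krt5, the type II partner of Krt14, had 28.7, 108, 15.6 and 35.1 CPM in control tumors and 33.5, 19.7, 145 and 170.5 CPM in Ctsd-/- tumors. Krt14 had 109.5, 196, 80.55 and 89.5 CPM in control tumors and 51.0, 48.6, 304 and 170 CPM in Ctsd-/- tumors. For both genes Ctsd-/- tumors 3 and 4 were the higher pair of their group and tumors 1 and 2 the lower one, and neither difference passed the threshold (log2 FC 0.98, SE 0.74, and 0.27, SE 0.56). Krt5 passed it without control tumor 2 (log2 FC 1.80, unadjusted p = 0.0319 with edgeR) or Ctsd-/- tumor 2 (1.31, unadjusted p = 0.0854).

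With edgeR and all 8 tumors the luminal keratins did not pass the threshold. Their log2 FC were −0.44 for Krt7, −0.08 for Krt8, −0.37 for Krt18 and −0.65 for Krt19, with a median of −0.41 against 0.00073 over all genes tested. Krt19, the smallest keratin, which lacks most of the tail domain, had 1681, 1379, 1100 and 1983 CPM in control tumors and 477.5, 349, 1604 and 1487 CPM in Ctsd-/- tumors. The low values were those of Ctsd-/- tumors 1 and 2, below every control tumor, and tumors 3 and 4 lay within the control range. Krt19 passed the threshold on the lower side with limma-voom (log2 FC −0.92, unadjusted p = 0.088), with the epithelial markers as a covariate (−1.14, unadjusted p = 0.0275) and without Ctsd-/- tumor 3 (−0.99, unadjusted p = 0.0764). Krt7 passed it without control tumor 3 (−0.67, unadjusted p = 0.0203 with edgeR). Krt8 ranged from 1104 to 1842 CPM in control tumors and from 1033 to 1681 CPM in Ctsd-/- tumors. The basal share of the summed luminal and basal level per kilobase was 3.74%, 6.61%, 3.00% and 2.35% in control tumors and 3.48%, 2.73%, 14.7% and 9.40% in Ctsd-/- tumors 1 to 4.

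Markers of other cells moved with this division of the Ctsd-/- tumors. All 10 adipocyte markers were called higher in Ctsd-/- tumors (median log2 FC 2.80, led by Lep, Car3 and Plin1), as were 5 of 8 endothelial markers, led by Cldn5, Cdh5 and Pecam1. Summed adipocyte markers ranged from 678 to 6566 CPM in control tumors and from 4880 to 36830 CPM in Ctsd-/- tumors, and endothelial markers were at 384 and 345 CPM in Ctsd-/- tumors 3 and 4 against 75.3 to 149 CPM in the other 6 tumors. Of 11 basal and myoepithelial markers without keratins, 2 were called higher (Col17a1, a hemidesmosomal collagen, log2 FC 0.95, and Oxtr, the oxytocin receptor, 0.88) and 0 lower. Their summed level was 2248 and 1523 CPM in Ctsd-/- tumors 3 and 4, 939 and 1393 CPM in Ctsd-/- tumors 1 and 2, and 876 to 1711 CPM in control tumors. The 12 epithelial markers and the 10 macrophage markers had 0 calls, 1 of 10 fibroblast markers was higher (Pdgfra), 1 of 12 luminal markers without keratins was higher (Prlr) and 2 lower (Kit and Prom1), and 4 of 12 skin keratinocyte markers were tested, of which 1 was lower (Sprr1a). With the adipocyte markers as a covariate 0 members were called higher and 5 lower (Krt5, Krt7, Krt14, Krt19 and Krt20), where 3.93% and 3.35% of all genes tested were called. Without Ctsd-/- tumors 3 and 4, left out after seeing the data, 0 were called higher and 2 lower, namely Krt14 (log2 FC −1.25) and Krt19 (−1.89), where 2.57% and 3% of all genes tested were called. In bulk tissue, fewer cells of a type and less RNA per cell cannot be told apart.

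In 1% FCS the luminal keratins were all higher in Ctsd-/- than in Ctsd+/+ cells, and the basal keratin Krt14 was lower. This comparison sets the cells without CTSD against those with it after 10 days in the starvation medium. Calls in cells required both an adjusted p under 0.05 and a log2 FC beyond 1 in size. By this threshold 7 of the 8 members tested were called higher and 1 lower, where 10.3% and 14.6% of the 15178 genes tested were called. Krt15 and Krt17 had too few counts to be tested. Krt5 and Krt20 passed the filter on low counts only through Ctsd-/- cultures, so their calls are no separate support for a difference.

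Krt7, a type II keratin of simple ductal epithelia, had 84.7, 256 and 381 CPM in the Ctsd+/+ cultures, against 2275, 3682 and 3747 CPM without CTSD. The log2 FC was 3.75 (SE 0.45, adjusted p = 3.98e-05). Krt8 had 217, 493 and 766 CPM in the Ctsd+/+ cultures, against 2447, 3467 and 3821 CPM without CTSD (log2 FC 2.72, SE 0.36, adjusted p = 7.62e-05). In both genes replicate 1 was the lowest sample of its group in either genotype, and the genotypes did not overlap.

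Krt18, the type I partner of Krt8, had 261, 411 and 464 CPM in the Ctsd+/+ cultures, against 2799, 3852 and 4066 CPM without CTSD (log2 FC 3.24, SE 0.22, adjusted p = 6.78e-07). Krt19 had 37.5, 33.6 and 58.3 CPM in the Ctsd+/+ cultures, against 323.5, 517 and 496 CPM without CTSD (log2 FC 3.37, SE 0.29, adjusted p = 3.29e-06). The 4 luminal keratins rose by a median log2 FC of 3.30, and that of all genes tested was 0.00025. Krt80, a type II keratin with broad epithelial expression, had 5.22, 20.55 and 46.6 CPM in the Ctsd+/+ cultures, against 77.8, 158 and 127 CPM without CTSD (log2 FC 2.32, SE 0.55, adjusted p = 0.00446).

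Krt20, best known from intestinal, gastric and urothelial epithelium, was near 0 in Ctsd+/+ cells. It had 3, 1 and 9 reads in the Ctsd+/+ cultures and 781, 747 and 692 reads in the Ctsd-/- cultures, the latter being 19.0, 20.5 and 20.5 CPM. The pooled counts gave a ratio of 159.8 (exact 95% interval 93.3 to 300.7, counting error only), and the log2 FC was 7.30 (SE 0.40, adjusted p = 1.61e-07). The genotypes were apart by more than any other member, and the 3 Ctsd-/- cultures lay within 2 CPM of each other. The test is no separate support for this difference, since Krt20 passed the filter only through Ctsd-/- cultures.

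Among the basal keratins Krt14 had 37.3, 45.3 and 32.4 CPM in the Ctsd+/+ cultures, against 4.99, 7.39 and 7.98 CPM without CTSD. This fall, log2 FC −2.50 with SE 0.43, had an adjusted p of 0.000579 and left no overlap, while its partner Krt5 was called higher. Krt5 had only 1, 4 and 1 reads in Ctsd+/+ cells and 23, 9 and 8 reads in Ctsd-/- cells (log2 FC 2.53, SE 0.91, adjusted p = 0.0369). This call was lost when Ctsd+/+ replicate 1 or 3 or Ctsd-/- replicate 1 was left out (adjusted p from 0.103 to 0.131 in these 3 fits). Krt5 passed the filter only through Ctsd-/- cultures, so its opposite direction to Krt14 rests on few reads.

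The Ctsd+/+ 1% FCS cells differed from the Ctsd-/- cells in epithelial genes in general. Of 12 epithelial junction and regulator markers, 11 were called higher in Ctsd-/- cells, led by the claudins Cldn7, Cldn4 and Cldn3 (log2 FC 3.51, 3.37 and 3.05), and 0 were lower. Of 10 tested luminal markers without keratins, 5 were higher, among them Prom1 and Ehf (log2 FC 4.85 and 3.68), and 1, the progesterone receptor gene Pgr, was lower (7.14, 1.01 and 0 CPM in Ctsd+/+ cells and 0 in all 3 Ctsd-/- cultures). All 6 tested fibroblast markers were lower, led by Col3a1, Pdgfrb and Col1a1. Their summed level was 1473 to 3629 CPM in Ctsd+/+ cells and 8.37 to 33.4 CPM in Ctsd-/- cells, while the fibroblast genes Lum and Thy1 were at 0 in all 3 Ctsd+/+ cultures and Dcn was at 1.86 CPM or less. Col3a1, at 0.178 CPM or less in the other cell groups, passed the filter on low counts only through the Ctsd+/+ 1% FCS cultures. Pgr did not pass it through the Ctsd-/- 1% FCS cultures. The calls of these genes are therefore no separate support for a difference. Of 10 macrophage markers 3 were tested and 2 called higher, among them Cd68 (log2 FC 2.12), with C1qa, C1qb and C1qc at 0 in all Ctsd+/+ cultures. The part of these genes in the keratin differences was not tested.

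**Figure D2:**
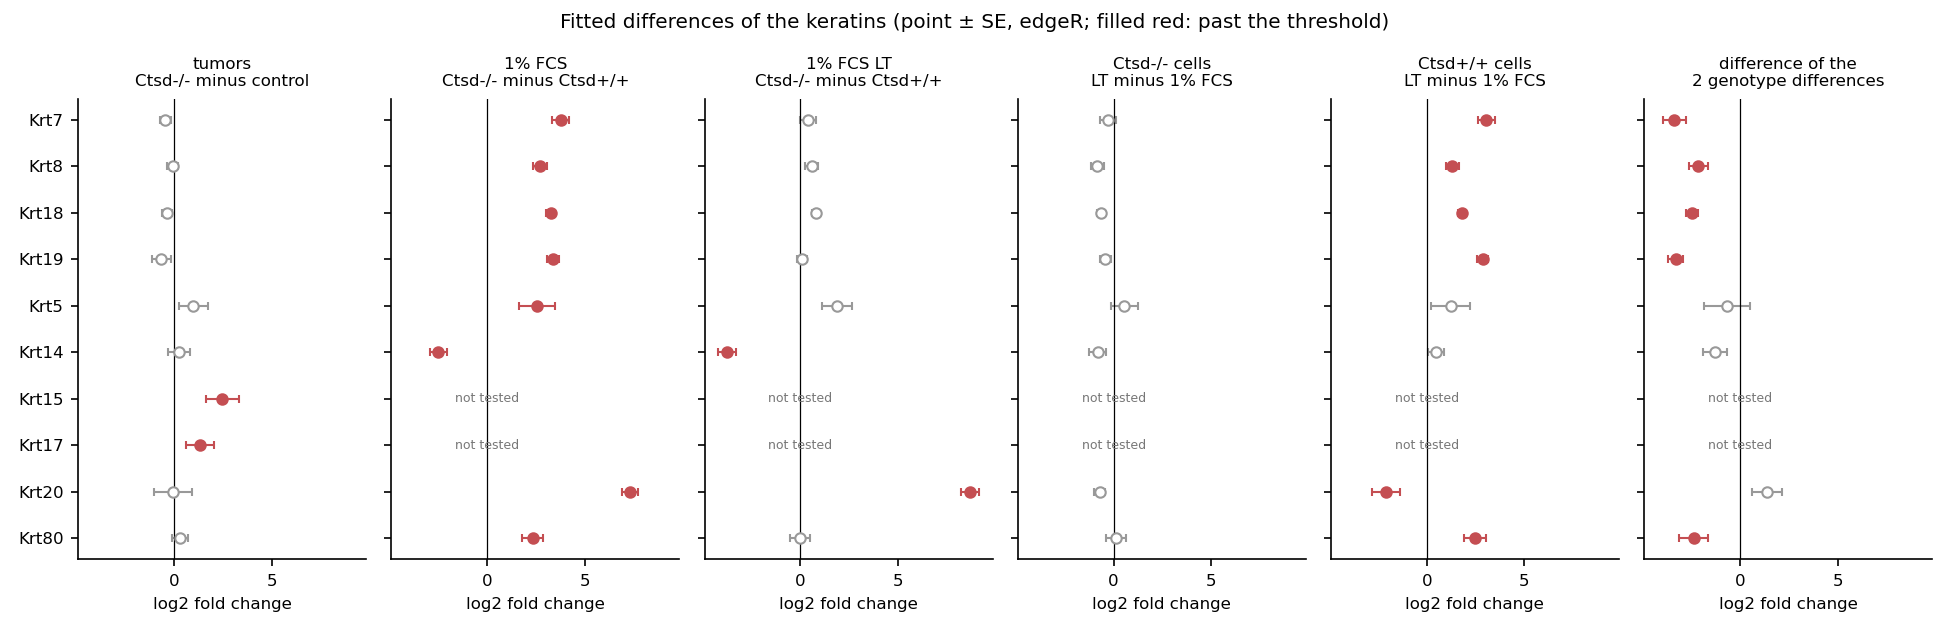
Fitted log2 fold change of each keratin (point) with its standard error (bar) in the 6 comparisons, filled red where past the threshold of the comparison. All 4 luminal keratins lie between 2.72 and 3.75 in the 1% FCS comparison of genotypes and between 0.07 and 0.78 in 1% FCS LT, whereas Krt14 and Krt20 stay on opposite sides of 0 in both.

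After 12 weeks in 1% FCS, luminal keratins differed less between the genotypes than at 10 days, and none was called. Of 8 members tested, 1 was called higher in Ctsd-/- cells (9.24% of all genes tested were) and 1 lower (10.1%). Krt19 had 280, 359 and 312 CPM in the Ctsd+/+ LT cultures, against 235, 322.5 and 444 CPM without CTSD (log2 FC 0.07, SE 0.26, adjusted p = 0.847). Krt7 had 2305, 1928 and 1753 CPM in the Ctsd+/+ LT cultures, against 2221, 2575 and 3088 CPM without CTSD (log2 FC 0.40, SE 0.40, adjusted p = 0.467). Both genes overlapped between the genotypes.

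The pair Krt8 and Krt18 remained without overlap between the genotypes, but under the fold threshold. Krt8 had 1199, 1300 and 1134 CPM in the Ctsd+/+ LT cultures, against 1764, 1921 and 1762 CPM without CTSD (log2 FC 0.58, SE 0.34, adjusted p = 0.192). Krt18 had 1421, 1303 and 1276 CPM in the Ctsd+/+ LT cultures, against 2082, 2309 and 2474 CPM without CTSD (log2 FC 0.78, SE 0.21, adjusted p = 0.0105).

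Krt14 and Krt20 kept the direction of their genotype difference and were the calls of this comparison. Krt14 had 75.9, 65.9 and 17.6 CPM in the Ctsd+/+ LT cultures, against 4.76, 3.76 and 3.10 CPM without CTSD, and the log2 FC was −3.78 with an adjusted p of 6.6e-05 (SE 0.46). Ctsd+/+ LT replicate 3 was the low sample of its group and still lay above all Ctsd-/- LT samples. Krt20 had 1 read in each of the 3 Ctsd+/+ LT cultures and 428, 400 and 664 reads in the Ctsd-/- LT cultures (10.2, 10.3 and 16.1 CPM). The pooled counts gave a ratio of 464.9 (exact 95% interval 158.8 to 2257, counting error only), with an adjusted p of 2.81e-07. As in 1% FCS, Krt20 could be tested only because it passed the filter through Ctsd-/- cultures. Krt5 had 8, 0 and 8 reads in Ctsd+/+ LT cells, where a count of 0 allows up to 0.0799 CPM, and 10, 23 and 30 reads in Ctsd-/- LT cells, without overlap (log2 FC 1.86, SE 0.76, adjusted p = 0.0715). Krt80 was at 120 to 143 CPM in Ctsd+/+ LT cells and 109 to 150 CPM in Ctsd-/- LT cells.

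The epithelial marker genes called in 1% FCS LT were lower in Ctsd-/- cells. Of the 12 epithelial markers 0 were called higher and 4 lower in Ctsd-/- LT cells, led by Grhl1, Esrp1 and Cdh1 (log2 FC −2.95, −1.24 and −1.05). The median log2 FC of the 12 was −0.63. Their summed level overlapped, at 3662 to 4275 CPM in Ctsd+/+ LT and 3618 to 5499 CPM in Ctsd-/- LT cells. Cldn3, Cldn4 and Cldn7 had higher means in Ctsd-/- LT cells, Cldn4 at 1479 to 2845 CPM against 870 to 1414 CPM with CTSD. Fibroblast markers had 3 of 6 tested called higher, led by Pdgfrb and Postn, with a summed level of 3.24 to 8.54 CPM in Ctsd+/+ LT cells and 11.5 to 104 CPM in Ctsd-/- LT cells. Vim was 3.03, 0.906 and 7.18 CPM in the Ctsd+/+ LT cultures, against 810, 506 and 38.1 CPM without CTSD. Summed luminal keratins were 6302, 7127 and 7767 CPM in the same 3 Ctsd-/- LT cultures.

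In Ctsd+/+ cells the luminal keratins rose between the time points. Between 10 days and 12 weeks, 5 of 8 members were called higher in Ctsd+/+ cells, where 11% of all genes tested were called higher, and 1 lower, where 12.3% were called lower. The log2 FC were 3.05 for Krt7 (SE 0.44), 2.88 for Krt19 (SE 0.28), 2.48 for Krt80 (SE 0.55), 1.82 for Krt18 (SE 0.21) and 1.2996 for Krt8 (SE 0.34), with adjusted p from 9.88e-06 to 0.00818. For each of these the LT cultures lay above all 1% FCS cultures, and the share of all genes so separated was not counted. Without Ctsd+/+ 1% FCS replicate 1, the lowest culture in Krt8, its log2 FC was 0.94, under the fold threshold. Krt20 was called lower on 13 reads in the 3 cultures at 10 days and 3 reads at 12 weeks, a ratio of pooled counts of 4.74 (exact 95% interval 1.301 to 25.9, counting error only). Its call was lost when Ctsd+/+ 1% FCS replicate 3 or any LT replicate was left out (adjusted p from 0.0737 to 0.379 in these 4 fits). Krt14 was 32.4 to 45.3 CPM at 10 days and 17.6 to 75.9 CPM at 12 weeks, with overlap.

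In the same comparison all 12 epithelial markers were called higher, led by Ovol1, Rab25 and Cldn3 (log2 FC 3.64, 3.17 and 2.89), and 5 of 6 tested fibroblast markers lower. Of these 6, Col3a1 passed the filter on low counts only through the Ctsd+/+ 1% FCS cultures. Of the 8 tested intermediate filament genes other than keratins, Vim (log2 FC −9.69) and Nes, which encodes nestin (−3.37), were called lower and 0 higher. The Ctsd+/+ 1% FCS cultures enter both this comparison and that of the genotypes at 10 days, so the changes of the luminal keratins in them rest on the same 3 cultures.

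In Ctsd-/- cells no member passed the threshold between the time points. With edgeR, 0 of 8 were called higher (1.11% of all genes tested were) and 0 lower (0.369%), and DESeq2 and limma-voom also called 0. At an unadjusted p under 0.05, 3 were on the lower side, and the share of all genes at that p was not counted. Krt8 went from 2447, 3467 and 3821 CPM to 1764, 1921 and 1762 CPM (log2 FC −0.84, SE 0.34, adjusted p = 0.219), and for Krt18 it was −0.64, with an adjusted p of 0.127 (SE 0.21). For Krt20 the log2 FC was −0.71, with an adjusted p of 0.200 (SE 0.27). In all 3 the ranges of the time points did not overlap, nor did they for Krt14 and for Krt17, which had 5 reads or fewer. The share of all genes without overlap was not counted. With the label code as a covariate Krt8 passed the threshold (log2 FC −1.14, adjusted p = 0.0258).

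The difference of the genotype differences, 1% FCS LT minus 1% FCS, was called negative for 5 of 8 members, where 8.12% of all genes tested were called negative, and positive for 0 (11%). These were the 4 luminal keratins and Krt80. On the positive side DESeq2 and limma-voom also called 0, where 11.9% and 10.7% of all genes tested were called. With edgeR 0 members had an unadjusted p under 0.05 on that side, and the share of all genes at that p was not counted. For Krt18 it was −2.46 on the log2 scale (SE 0.29, adjusted p = 9.64e-05) and for Krt8 −2.14 (SE 0.48, adjusted p = 0.00572). For Krt80 it was −2.36 (SE 0.75, adjusted p = 0.0332), and the adjusted p was 0.0601 to 0.078 in 7 of the 12 fits without 1 culture, those without Ctsd+/+ 1% FCS replicate 2, Ctsd-/- 1% FCS replicate 2 or 3, or replicate 1 or 2 of either LT group. For Krt14 it was −1.28 (SE 0.59, adjusted p = 0.126), and it passed without Ctsd+/+ LT replicate 3 (−1.70, adjusted p = 0.00253) and within the code that 8 cell samples share (−1.72, adjusted p = 0.00286). For Krt20 it was 1.38 (SE 0.77, adjusted p = 0.202). This contrast uses all 4 cell groups and is not independent of the comparisons above.

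The make-up of the keratin total differed between the groups. The summed luminal level per kilobase was 337, 622 and 844 CPM in the Ctsd+/+ 1% FCS cultures, 3959 to 6011 CPM in Ctsd-/- 1% FCS, 2093 to 2342 CPM in Ctsd+/+ LT and 3042 to 3657 CPM in Ctsd-/- LT cultures. The basal share of the luminal and basal sum was 6.19%, 4.18% and 2.22% in Ctsd+/+ 1% FCS cultures and 1.88%, 1.68% and 0.498% in Ctsd+/+ LT cultures. In Ctsd-/- cells it was 0.0815% to 0.0818% in 1% FCS and 0.0601% to 0.0971% in LT, below every Ctsd+/+ culture. Most of the basal level in cells was Krt14.

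Type II keratins made up 21.45% to 32.7% of the summed level per kilobase of the members in tumors and 36.9% to 56.9% in cells. In Ctsd-/- 1% FCS, Ctsd+/+ LT and Ctsd-/- LT cells the type II share was 47.0% ± 1.10, 49.7% ± 0.78 and 47.1% ± 1.14 (SD, n = 3), and in Ctsd+/+ 1% FCS cells it was 36.9%, 49.0% and 56.9%. The ratio of Krt8 to its partner Krt18 per kilobase was 0.428 to 0.548 in control tumors, 0.435 to 0.669 in Ctsd-/- tumors, and 0.523 to 0.732 in the 9 cell cultures outside Ctsd+/+ 1% FCS. In the Ctsd+/+ 1% FCS cultures it was 0.611, 0.879 and 1.21. Krt7 per kilobase was 0.0483 to 0.112 of Krt8 in tumors, 0.187 to 0.249 of it in Ctsd+/+ 1% FCS, 0.445 to 0.508 in Ctsd-/- 1% FCS and 0.602 to 0.919 in LT cells of both genotypes. These shares depend on the transcript length used for each gene and are descriptions with no test.

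**Figure D3:**
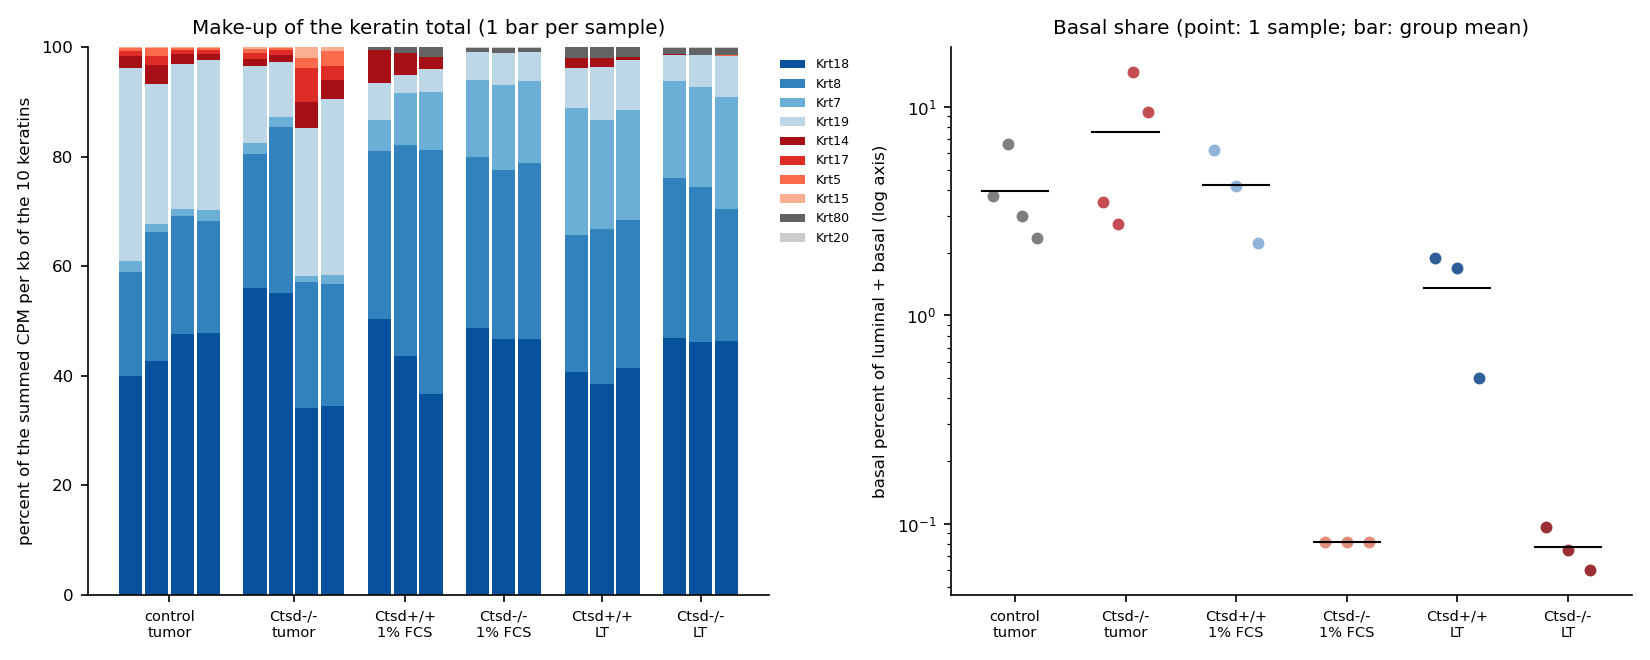
Left, percent of the summed CPM per kilobase of the 10 keratins held by each keratin, 1 bar per sample (luminal in blue, basal in red, Krt80 and Krt20 in gray). Right, basal percent of the luminal and basal sum by sample on a log axis with group means as bars, where Ctsd-/- tumors 3 and 4 are the highest samples and the Ctsd-/- cells lie below 0.1%.

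Genes of proteins that link keratin filaments to desmosomes were among those higher in Ctsd-/- 1% FCS cells. Of 12 tested linker and keratin-binding genes, 5 were called higher and 0 lower in Ctsd-/- 1% FCS cells, led by periplakin Ppl, envoplakin Evpl and plakophilin Pkp3 (log2 FC 2.42, 2.22 and 2.11). Desmoplakin, Dsp, which anchors keratin to desmosomes, was 102 to 116 CPM in Ctsd+/+ 1% FCS, 290 to 328 CPM in Ctsd-/- 1% FCS, 507 to 702 CPM in Ctsd+/+ LT and 138 to 194 CPM in Ctsd-/- LT cells. In Ctsd+/+ cells 7 linker genes were called higher and 1 lower at 12 weeks, and in 1% FCS LT 1 was higher (Dst) and 2 lower (Dsp and Evpl) in Ctsd-/- cells. In tumors Dst and Fam83h were called higher and 0 of the 12 tested lower, where 8.44% and 8.27% of all genes tested were called.

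Transcription factors tied to keratin genes changed in both directions. Of 13 tested in Ctsd-/- against Ctsd+/+ 1% FCS cells, 3 were called higher and 6 lower. Zeb1, a repressor of epithelial genes, was 62.6 to 101 CPM in Ctsd+/+ 1% FCS cells and 0.548 to 0.998 CPM in Ctsd-/- 1% FCS cells (log2 FC −6.62), and Trp63, which encodes the basal factor p63, was 0.209 to 2.55 CPM and 0 to 0.0822 CPM (−4.67). Snai1, another repressor, was 33 to 44.1 CPM and 3.01 to 3.99 CPM (−3.44). Trp63 did not pass the filter on low counts through the Ctsd-/- 1% FCS cultures. Its call is therefore no separate support for a difference. In Ctsd+/+ cells at 12 weeks 4 factors were higher and 5 lower, led by Zeb1 (−5.47), Grhl3, an activator of epithelial differentiation (5.42), and Zeb2 (−5.25). Between the LT genotypes 4 were higher and 3 lower in Ctsd-/- cells, led by Grhl3 (−4.29), Zeb2 (3.90) and Zeb1 (2.95). In Ctsd-/- cells Zeb1 was the one factor called between the time points, higher at 12 weeks (log2 FC 4.10). In tumors 2 of 15 tested factors, Zeb2 and Klf4, were called higher and 0 lower, where 8.44% and 8.27% of all genes tested were called. Of these factors 0 had an adjusted p under 0.05 with edgeR.

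Of the other intermediate filament genes tested, Vim had the largest fitted difference in 1% FCS (log2 FC −8.29 in Ctsd-/- against Ctsd+/+ cells). Nes was 38.1, 62.9 and 97.6 CPM in Ctsd+/+ 1% FCS, 435 to 618 CPM in Ctsd-/- 1% FCS, 6.23 to 6.59 CPM in Ctsd+/+ LT and 298 to 366 CPM in Ctsd-/- LT cells, so that nestin, like Krt20, was higher in Ctsd-/- cells at both times. Of the 8 tested, 2 were higher and 2 lower in Ctsd-/- cells in 1% FCS, and 3 higher (Vim, Nes and the desmin gene Des) and 0 lower in 1% FCS LT.

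**Figure D4:**
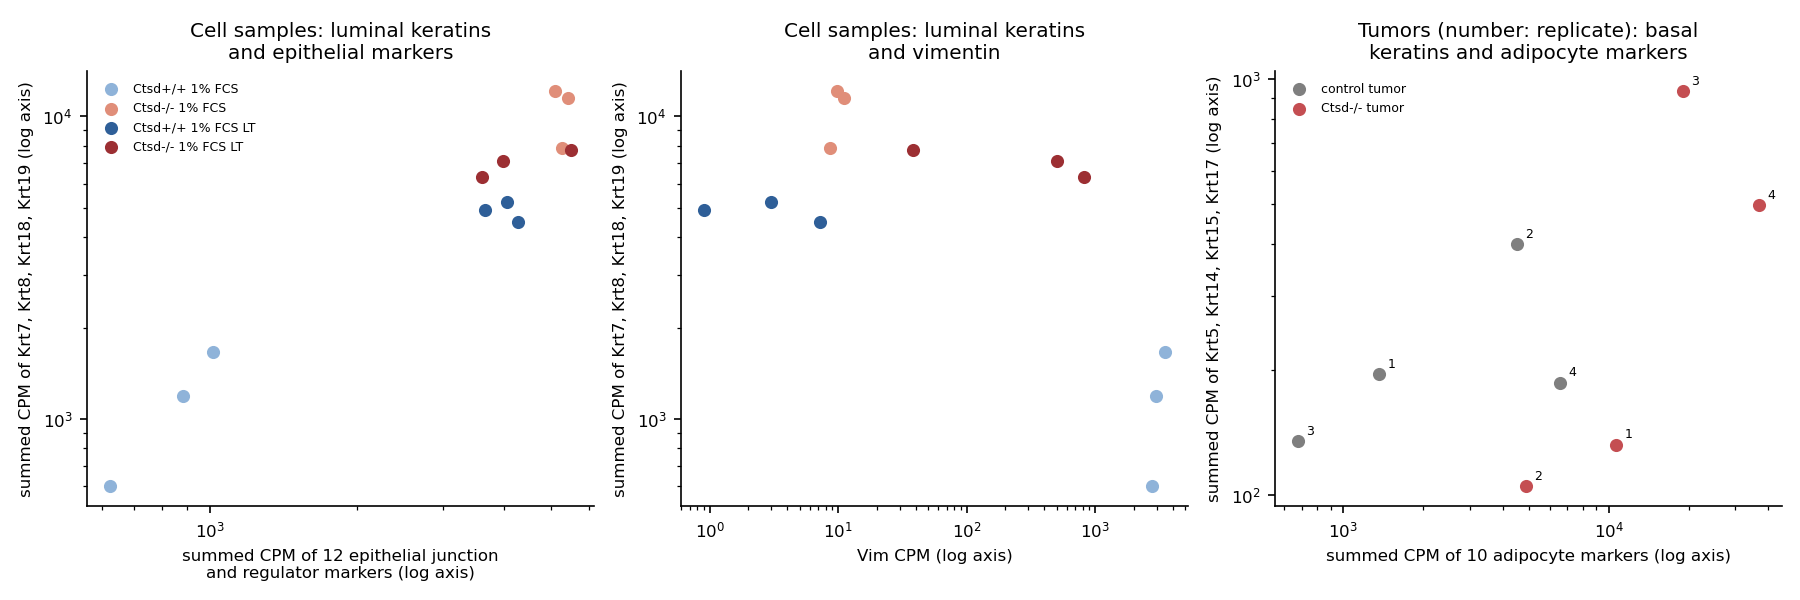
Left and middle, summed CPM of the 4 luminal keratins in the 12 cell cultures against the summed CPM of 12 epithelial markers and against Vim CPM. Right, summed CPM of the 4 basal keratins against the summed CPM of 10 adipocyte markers in the 8 tumors, numbered by replicate (all axes log). The Ctsd+/+ 1% FCS cultures sit apart at low luminal keratin and high Vim, Ctsd-/- LT cultures combine high luminal keratin with Vim of 38.1 to 810 CPM, and Ctsd-/- tumors 3 and 4 are highest on both axes of the right panel.

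Outside the members, few keratins were expressed. Of the 43 other keratin genes, 15 passed the filter on low counts in tumors, and 5 passed in cells. Of the 15, 3 were called higher and 2 lower in Ctsd-/- tumors, where 8.44% and 8.27% of all genes tested were called. Krt6a, a keratin of activated keratinocytes, was 3.00 to 10.98 CPM in control tumors and 0.108 to 2.14 CPM in Ctsd-/- tumors, without overlap (log2 FC −3.06, SE 0.74). Krt36, a hair keratin, had a log2 FC of 2.67 at 1.54 CPM or less in every tumor, and Krt4, of mucosal epithelia, one of −2.11. In cells Krt42, a relative of Krt14 and Krt17, was 0 to 0.270 CPM in Ctsd+/+ 1% FCS and 0.621 to 1.23 CPM in Ctsd-/- 1% FCS cultures (log2 FC 3.12), and was also called higher in Ctsd-/- LT cells (4.72). Krt79, a keratin of sebaceous ducts, was called lower in Ctsd-/- 1% FCS cells (log2 FC −3.21, at 0.519 CPM or less in every culture). Krt88 was called higher in Ctsd-/- 1% FCS cells (log2 FC 4.19) and in Ctsd+/+ cells at 12 weeks (5.31), with 0.659 CPM or less in every culture. At these levels Krt42, Krt79 and Krt88 could pass the filter on low counts only through cultures where they were high. Their calls are therefore no separate support for a difference.

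Across the 12 cell cultures several members varied together, which is given as a description because cultures of a group are not independent points. Pearson's r of log2 CPM was 0.97 between Krt8 and Krt18, 0.96 between Krt7 and Krt19 and 0.96 between Krt7 and Krt80. Krt14 ran opposite to Krt20 (r = −0.92). Across the 8 tumors r was 0.68 between Krt8 and Krt18.

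Among 11054 genes compared over the cell cultures, those most like Krt8 were Ccdc86 (r = 0.986), Pum3 (0.982) and Gm7332 (0.981), and those most like Krt19 were Mpzl3 (0.990), Ralgps2 (0.988) and Tmem40 (0.987). Those most like Krt14 were Gpaa1 (0.976), Txlna (0.966) and Tmco4 (0.965). Over the 8 tumors and 12575 genes, Tpm2 (0.966), Prg4 (0.958) and Fhl2 (0.918) were most like Krt8, and Nup54 (0.967), Atad3a (0.964) and Angpt2 (0.942) most like Krt14. Samples of a group share their culture or tumor type and their libraries differ in depth, so no p is given.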

How the data were processed

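RNA sequencing of 8 tumors and 12 cell cultures was analysed. The authors trimmed reads with Trimmomatic and mapped them to GRCm38/mm10 with STAR, and the deposited files hold whole-number counts per gene and sample, regardless of strand and for each strand. The annotation release behind them is not given in the sources used here. Counts regardless of strand were used in tumors, where 52.8% to 53.7% of strand-assigned counts lay on the opposite strand, and opposite-strand counts in cells (97.1% to 97.3%). Entries that name no gene (24.7% to 32.7% in tumors and 14.8% to 18.9% in cells) were left out. Symbols were found for 45143 of 45706 identifiers in the GENCODE annotation, whose coding transcripts gave the lengths.

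Tumors and cells were fitted separately with edgeR 4.0.16 in R 4.3.3 (filterByExpr, TMM scaling, quasi-likelihood test, Benjamini-Hochberg adjustment over all genes tested), in place of the limma fit of the authors because the files hold counts. Calls used an unadjusted p of 0.1 in tumors, and in cells an adjusted p of 0.05 with a log2 FC beyond 1. Intervals and floors cover counting error only. Named genes were the 10 members, Ctsd, up to 3 called genes of each list and of the other keratins with the largest absolute log2 FC, and for Krt8, Krt14 and, in cells, Krt19 the 3 most correlated genes (average log2 CPM above 1.3). Genes named beyond this rule were chosen after their values were seen. The members and lists were chosen with earlier results of these data known. Alternatives were DESeq2 1.42.0, limma-voom (limma 3.58.1), other scalings, filters, count forms and lengths, the label code, marker covariates, a replicate block and leaving out samples. One macrophage marker gene is not reported here by name.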

Additional observations from a re-analysis of the deposited data

Results flagged for a closer look

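The genotype difference (Ctsd-/- minus Ctsd+/+) of 5 keratins was tested to differ between 1% FCS LT and 1% FCS, with edgeR's interaction term adjusted over all genes. The LT difference minus the 1% FCS difference was −3.35 on the log2 scale for Krt7 (adjusted p = 0.00129), −2.14 for Krt8 (adjusted p = 0.00572), −2.46 for Krt18 (adjusted p = 9.64e-05), −3.29 for Krt19 (adjusted p = 7.6e-05) and −2.36 for Krt80 (adjusted p = 0.0332). The Krt80 call was lost in 7 of the 12 fits without 1 culture (adjusted p from 0.0601 to 0.078). In each of these genes all Ctsd-/- cultures lay above all Ctsd+/+ cultures in 1% FCS, and the share of all genes so separated was not counted.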

How the results depend on the processing

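Of the log2 FC of single members under the alternatives, 790 kept direction and side of the threshold, 32 lost a call, 14 gained one and 26 changed sign, and the cause was not tested. Against 2 members called higher and 0 lower in tumors, the adjusted p alone, limma-voom, the adipocyte covariate and the epithelial covariate each gave 0 higher, and upper-quartile scaling gave 1. Limma-voom and the epithelial covariate gave 1 lower and the adipocyte covariate 5. Of all genes tested, limma-voom called 8.33% higher and 6.98% lower, the epithelial covariate 6.59% and 7.57%, the adipocyte covariate 3.93% and 3.35%, and upper-quartile scaling 7.35% and 9.94%. Leaving out 1 tumor gave 1 to 3 higher and 0 to 1 lower, where 5.12% to 11.3% and 4.32% to 12.1% of all genes were called. Without Ctsd-/- tumors 3 and 4, an alternative chosen after seeing the data, 0 were higher and 2 lower (2.57% and 3% of all genes), with log2 FC of −0.14 for Krt15, −1.25 for Krt14, −0.66 for Krt17 and −0.81 for Krt5. Krt14 changed sign with limma-voom (−0.066), the adipocyte (−1.57) and epithelial covariates (−0.34) and without Ctsd-/- tumor 3 (−0.40), and Krt17 (−1.08) and Krt5 (−1.90) with the adipocyte covariate. Krt20 changed sign with limma-voom (0.63). Without 1 tumor the log2 FC ranged from −0.48 to 0.49 for Krt20, from −0.40 to 0.62 for Krt14 and from −0.21 to 0.075 for Krt8.

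With the replicate number as a block, 1 member was higher in tumors (5.94% of all genes), Krt20 was 0.55 and Krt14 −0.072, and the Krt5 call in 1% FCS was lost (log2 FC 2.51, adjusted p = 0.0603). The numbers were not taken to pair samples: correlations of the deviations of same-numbered samples were −0.30 to −0.0075 in tumors. In cells the best match in the second group of a pair was sought for each sample of the first group only. It had the same number in 3 of 3 from Ctsd+/+ to Ctsd-/- 1% FCS (correlations of same-numbered samples 0.09997 to 0.362). The same held in 3 of 3 from Ctsd+/+ 1% FCS to Ctsd-/- LT (0.068 to 0.248) and from Ctsd-/- 1% FCS to Ctsd-/- LT (0.0766 to 0.192). In the other pairs of groups it held in 0 to 2 of 3, so the matches are a hint from the data. Replicate 1 of both 1% FCS groups shares a label code, as does replicate 3 of both LT groups, while the other 8 cell samples share another; the meaning of the codes is not stated.

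In 1% FCS, leaving out 1 culture gave 1 to 2 members lower, where 13.3% to 15.4% of all genes were called lower. In LT 2 were higher with limma-voom, where 8.9% of all genes were called. By the adjusted p alone 2 were higher, and 6003 of 15178 genes passed in either direction. With at least 10 counts in every sample 0 were higher (6.82% of all genes), because Krt20 was not tested there. Ctsd-/- cells over time had 1 lower with the label code as a covariate (0.665% of all genes). For Ctsd+/+ cells over time the lower calls were 0 with limma-voom or within the shared code (12.1% of all genes in each). With 10 counts they were 0 because Krt20 was not tested (9.25% of all genes). With no filter they were 2 (7.64%), and without 1 culture 0 to 1 (11.4% to 12.7%). In LT, Krt19 was −0.20 within the shared code and −0.18 to 0.28 without 1 culture, and Krt80 was −0.14 to 0.085 without 1 culture. Krt80 over time in Ctsd-/- cells was −0.22 within the shared code and −0.42 with the code as a covariate, and −0.12 to 0.36 without 1 culture. The basal share in Ctsd-/- 1% FCS was 0.0698% without lengths and 0.0851% with the union of exons as length, chosen after seeing the data. Without lengths the type II share was 30.2% and 35.4% in control and Ctsd-/- tumors, 59.0% and 61.8% in Ctsd+/+ and Ctsd-/- 1% FCS and 66.2% and 63.45% in LT cells. With union lengths it was 43.7% in Ctsd-/- 1% FCS, 44.95% in Ctsd+/+ LT and 42.7% in Ctsd-/- LT cells.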
